A study of Mus musculus with 10 samples.

Results

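The genes described here are 9 subunits of voltage-gated calcium channels in the embryonic mouse heart. They are *Cacna1c*, *Cacna1d*, *Cacna1g*, *Cacna1h*, *Cacnb1*, *Cacnb2*, *Cacnb3*, *Cacna2d1* and *Cacna2d2*, chosen by symbol, and all 9 were among the 23195 genes of the table that sets the genotypes side by side. The tissue was the heart of male embryos of the C57BL6/J strain at embryonic day 13.5. Wild type and *Nos1ap* null were represented by 5 libraries each. The null embryos were homozygous for the tm1d allele, a constitutive deletion of exon 4 of *Nos1ap*, so that the gene was disrupted in every cell of the embryo and not only in heart muscle. Stranded libraries were made from polyA RNA of the heart tissue and sequenced with paired ends. No source used here says that hearts were pooled. RNA of the whole tissue was measured, and fewer cells of a type and less RNA per cell cannot be told apart in it. The question was whether loss of *Nos1ap*, a gene tied to the QT interval of the electrocardiogram, was accompanied by a different RNA level of any of these subunits.

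A voltage-gated calcium channel is built around a pore-forming alpha-1 subunit, which senses the membrane voltage and passes calcium. L-type channels, with the pores CaV1.2 (*Cacna1c*) and CaV1.3 (*Cacna1d*), carry the calcium that triggers contraction. T-type channels, with the pores CaV3.1 (*Cacna1g*) and CaV3.2 (*Cacna1h*), open at more negative voltages and are known for their part in pacemaking and for their presence in the embryonic myocardium. L-type pores work with a cytoplasmic beta subunit, which brings the channel to the membrane and sets its gating, and with an extracellular alpha-2-delta subunit, which raises the amount of channel at the surface. T-type pores do not need either to pass current.

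The site on the pore that receives the beta subunit is the alpha interaction domain, in the loop that joins the first and second repeats of the protein. Its coding sequence is shown for both L-type pore genes, since it is the main docking site for the products of the beta subunit genes below. The letters are those of the transcripts Cacna1c-204 and Cacna1d-207 of GENCODE release M21 on GRCm38, read 5′ to 3′ on the coding strand. Capitals mark the 9 codons of the conserved residues by which the stretch was found.
Cacna1c: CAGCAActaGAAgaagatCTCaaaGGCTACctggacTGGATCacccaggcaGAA
Cacna1d: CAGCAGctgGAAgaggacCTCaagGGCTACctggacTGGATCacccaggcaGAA
The *Cacna1c* stretch lies in exon 9 of 48 at chr6:118734906-118734959 on the minus strand. The *Cacna1d* stretch lies in exon 9 of 49 at chr14:30142600-30142653, also on the minus strand. The stretches share 49 of their 54 bases, and all 18 codons encode the same residue in both genes. The same search found the domain in 7 of the 10 mouse pore genes. No coding transcript of the T-type pore genes matched, of which *Cacna1g* has 11, *Cacna1h* has 6 and *Cacna1i* has 5.

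The genes are scattered over the genome, in GRCm38 coordinates of the same annotation. The L-type pore genes are *Cacna1c* at chr6:118587240-119196418 (minus strand) and *Cacna1d* at chr14:30039939-30491455 (minus strand). The T-type pore genes are *Cacna1g* at chr11:94408391-94474198 (minus strand) and *Cacna1h* at chr17:25374285-25433783 (minus strand). The beta subunit genes are *Cacnb1* at chr11:98001508-98023034 (minus strand), *Cacnb2* at chr2:14603088-14987908 (plus strand) and *Cacnb3* at chr15:98630840-98644529 (plus strand). The alpha-2-delta genes are *Cacna2d1* at chr5:15934691-16374511 (plus strand) and *Cacna2d2* at chr9:107399612-107529343 (plus strand). Only *Cacna1g* and *Cacnb1* share a chromosome among the 9.

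The deposited values were means over the 5 libraries of a genotype of normalized counts, that is, of read counts divided by the size factor of each library. Counts of single libraries were derived from these means, as whole numbers that give the printed mean to its last digit. Libraries are numbered within a genotype from the highest size factor to the lowest, which is not the replicate number of the labels. The libraries held an estimated 11328000 to 14023000 read pairs on genes. The estimate is the sum of the group means times the size factor of each library, not a sum of derived counts. Counts were obtained in both genotypes for 5 of the 9 subunit genes and in wild type alone for *Cacna1g*. For the other 3 genes (*Cacna1c*, *Cacna1h* and *Cacna2d2*), with means above 1000, only the group means were used. The targeted gene followed the labels. *Nos1ap* had 147, 133, 126, 161 and 153 normalized counts in wild-type libraries 1 to 5 and 42.3, 42.2, 44.4, 31.1 and 39.2 in the null libraries, a log2 fold change of −1.83 (adjusted p = 1.11e-08, limma).

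The tissue label was borne out by heart muscle markers. All 11 cardiomyocyte markers, among them *Myh7*, *Tnnt2* and *Actn2*, had wild-type means between 5770 and 128162, and their sum differed between genotypes by 0.02 on the log2 scale. The 4 nodal markers (*Hcn4*, *Shox2*, *Isl1* and *Tbx3*) summed to 995 in wild type and 1037 in null. They went in different directions, with log2 ratios of 0.15, 0.21, −0.67 and −0.05. *Isl1* had 125 in wild-type library 3, against 50.6 to 72.4 in the other wild-type libraries. Wild-type library 3 stood apart from all others. Its summed level of the 7 neuronal markers with library values was 1756, against 104 to 121 in the other wild-type libraries and 96.9 to 117 in the null libraries. Values of the subunit genes are therefore given with and without it.

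**Figure D1:**
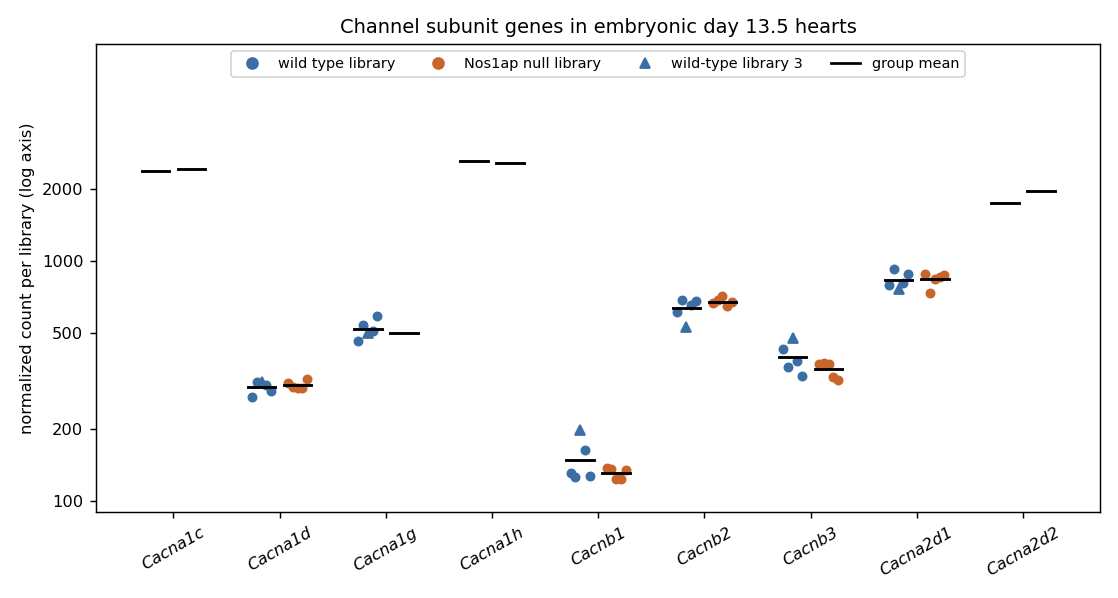
Normalized count (log axis) of the 9 calcium channel subunit genes in each wild-type (blue) and *Nos1ap* null (orange) library, with the group mean as a black line. The triangle is wild-type library 3, which sat at 198 for *Cacnb1* and 532 for *Cacnb2*, the highest and the lowest of the wild-type libraries. *Cacna1c*, *Cacna1h* and *Cacna2d2* are shown by group means only, as is *Cacna1g* in null.

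None of the 5 subunit genes that could be tested was found to differ between the genotypes. *Cacna1c*, *Cacna1g*, *Cacna1h* and *Cacna2d2* had no test at the main settings. Small changes can escape the test. In simulated counts it called 8 of 50 genes changed by 0.25 on the log2 scale and 33 of 50 changed by 0.5. Of the 5 that could be tested with limma, 0 had an adjusted p under 0.05 and 0 an unadjusted p under 0.05, with or without precision weights. Among all 11297 genes tested, 3 passed the adjusted threshold (0.0266%), and 407 had an unadjusted p under 0.05. In no testable subunit gene did the libraries of the genotypes fall into ranges that did not overlap. All null libraries lay above all wild-type libraries in 0.416% of the genes tested, and below them in 0.372%.

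No difference beyond the error was found in the L-type pores. *Cacna1c*, the pore of the main L-type channel of working myocardium, had a mean normalized count of 2376 in wild type and 2412 in null. The difference of 36.1 is 0.02 on the log2 scale. Its spread between libraries is known only from below. Among all sets of whole counts that give the printed means, the one with the least spread has an SD of 86.6 in wild type and 113 in null, so that the genotypes differed by at most 0.567 standard errors.

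*Cacna1d*, the L-type pore that opens at the more negative voltages and is prominent in the sinoatrial node, had 273, 314, 315, 307 and 288 normalized counts in the wild-type libraries. The null libraries had 312, 300, 296, 298 and 325. The libraries of the genotypes interleaved. The means were 299 ± 18.1 (SD, n = 5) in wild type and 306 ± 12.1 (SD, n = 5) in null, a log2 fold change of 0.03 (95% confidence interval −0.09 to 0.16, adjusted p = 0.998, limma). By the exact two-sided permutation test of the means, p was 0.508, where the smallest value 5 against 5 libraries can give is 0.00794. Without wild-type library 3 the log2 fold change was 0.05 (95% confidence interval −0.08 to 0.19). Of the summed counts of both L-type pore genes, *Cacna1c* took 88.8% in wild type and 88.7% in null.

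The group means of the T-type pores lay within 0.05 of each other on the log2 scale. *Cacna1h*, which encodes CaV3.2, had a mean of 2601 in wild type and 2553 in null. The log2 ratio was −0.03, and the difference was at most 0.64 standard errors, since the least possible SDs were 91.5 and 141. *Cacna1g*, which encodes CaV3.1, had 465, 542, 502, 510 and 593 normalized counts in the wild-type libraries. Its mean was 522 ± 47.9 (SD, n = 5) in wild type and 504 in null, a log2 ratio of −0.05. The mean of the wild-type libraries without library 3 was 528 ± 53.7 (SD, n = 4).

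The null counts of *Cacna1g* were not settled, and the sets of counts that its null mean allows all differed widely between libraries. No set of whole counts that gives its null mean has an SD below 124, or 24.7% of the mean, against 9.17% in wild type. The set with that SD runs from 317 in null library 2 to 666 in null library 4, and the next set has an SD of 231. Counts were settled only where they lay near to equal expression, so that no gene as variable as this at a like mean has library values to set beside it. With the least variable set taken as the counts, an alternative added after seeing the data, the log2 fold change was −0.09 (95% confidence interval −0.49 to 0.31, adjusted p = 0.998, limma).

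The beta subunits differed in different directions, none beyond the error. *Cacnb2*, the main beta subunit of the heart muscle L-type channel, had 615, 691, 532, 657 and 683 normalized counts in the wild-type libraries. In the null libraries the values were 672, 688, 714, 648 and 673. Wild-type library 3 was the lowest of all 10, and the other 4 wild-type libraries lay among the null libraries or close below. The means were 636 ± 64.9 (SD, n = 5) in wild type and 679 ± 24.3 (SD, n = 5) in null, a log2 fold change of 0.10 (95% confidence interval −0.03 to 0.23, adjusted p = 0.998, limma). Without wild-type library 3 the log2 fold change was 0.04 (95% confidence interval −0.06 to 0.14).

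*Cacnb3*, a beta subunit best known from neurons and smooth muscle, had 431, 362, 478, 383 and 332 normalized counts in the wild-type libraries. The null libraries had 372, 378, 372, 331 and 319. Wild-type libraries 3 and 1 were above every null library, libraries 2 and 5 were within the null range, and library 4 was just above it. The means were 397 ± 57.9 (SD, n = 5) in wild type and 354 ± 27.3 (SD, n = 5) in null. The log2 fold change of −0.16 (95% confidence interval −0.34 to 0.03) had an unadjusted p of 0.0891 and an adjusted p of 0.998 by limma. Without wild-type library 3 it was −0.09 (95% confidence interval −0.24 to 0.07).

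*Cacnb1*, the beta subunit of the skeletal muscle channel, had 131, 127, 198, 163 and 127 normalized counts in the wild-type libraries. The values were 138, 137, 124, 125 and 135 in null. Wild-type library 3 was again the highest. The means were 149 ± 30.9 (SD, n = 5) in wild type and 132 ± 6.76 (SD, n = 5) in null, a log2 fold change of −0.16 (95% confidence interval −0.39 to 0.07, adjusted p = 0.998, limma). It was −0.05 (95% confidence interval −0.25 to 0.15) once wild-type library 3 was left out.

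The balance of beta subunits was also taken within each library. The normalized count of *Cacnb2* over that of *Cacnb3* was 1.43, 1.91, 1.11, 1.72 and 2.06 in the wild-type libraries. It was 1.81, 1.82, 1.92, 1.96 and 2.11 in the null libraries. The wild-type libraries spanned the wider range, with library 3 at its lower end. The mean ratio was 1.64 ± 0.38 (SD, n = 5) in wild type and 1.92 ± 0.12 (SD, n = 5) in null, which did not pass the exact two-sided permutation test (p = 0.167). The mean of the 4 wild-type libraries without library 3 was 1.78 ± 0.27 (SD). Among the 3 beta genes, *Cacnb2* took 53.8% of the sum in wild type and 58.3% in null.

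Of the 9 genes, the alpha-2-delta subunits held the smallest and the largest difference of group means in counts. *Cacna2d1*, whose product binds the drug gabapentin as does that of *Cacna2d2*, had 797, 924, 768, 810 and 888 normalized counts in the wild-type libraries. Those of the null group had 887, 735, 840, 857 and 875. The ranges covered each other almost entirely. The means were 837 ± 65.6 (SD, n = 5) in wild type and 839 ± 60.5 (SD, n = 5) in null, a log2 fold change of 0.0028 (95% confidence interval −0.12 to 0.12, adjusted p = 0.998, limma). Without wild-type library 3 it was −0.03 (95% confidence interval −0.15 to 0.09). The 3 genes whose log2 normalized count followed that of *Cacna2d1* most closely over the 10 libraries, among 7382 genes with a mean of at least 100, were *Il10rb* (Pearson's r = 0.959), *Clec14a* (0.946) and *Cd109* (0.945). These correlations are a description of 10 libraries that share their preparation, with the closest genes picked from many.

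*Cacna2d2* had the largest difference in counts among the 9 genes, and the highest ratio of null to wild type. Its mean was 1749 in wild type and 1955 in null, a ratio of 1.12 or 0.16 on the log2 scale. The least SD that the printed means allow was 165 in wild type and 170 in null, or 9.41% and 8.72% of the mean. The difference of 206 counts was therefore at most 1.95 standard errors, and it was not tested here. Among 2647 genes with a mean of at least 1000, 39 (1.47%) had a log2 ratio of at least this size in either direction. The ratio of *Cacna2d2* to *Cacna2d1* was 2.09 in wild type and 2.33 in null.

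**Figure D2:**
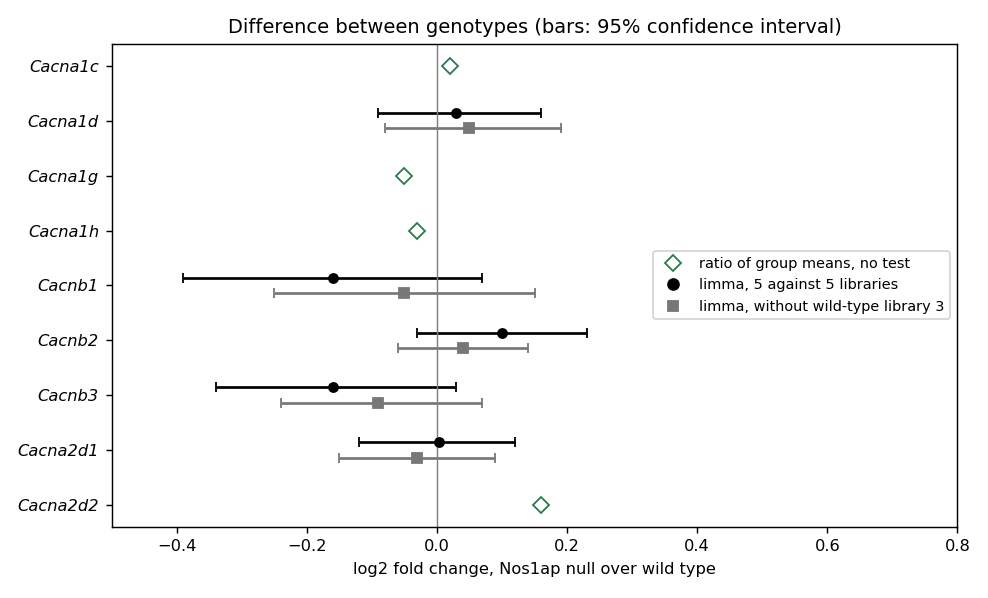
Log2 fold change of each subunit gene, *Nos1ap* null over wild type. Black points are limma estimates from 5 against 5 libraries, grey squares the same without wild-type library 3, both with 95% confidence intervals, and open diamonds are ratios of group means without a test. All 5 black intervals hold 0, and the 3 beta genes lie nearer to 0 without library 3, as for *Cacnb1* with −0.05 in place of −0.16.

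By group means alone, 1 of the 9 genes (*Cacna2d2*) was at least 1.1-fold higher in null and 2 (*Cacnb1* and *Cacnb3*, at ratios of 0.882 and 0.892) were at least 1.1-fold lower. Of the 14330 genes with a mean of at least 10, 7.6% were higher and 10.4% lower by this measure. The median log2 ratio of the 9 genes was 0.0025, with a range from −0.18 to 0.16, and that of all 14330 genes was −0.0013. Both lower genes depended on wild-type library 3. Without it, an alternative chosen after seeing the data, 0 of the 5 genes with library values were at least 1.1-fold apart in either direction, against 10.5% of 11297 genes higher and 10.5% lower.

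Levels of different genes were compared per length. With the mean wild-type count divided by the length of all annotated exons, the order was *Cacna1h* (266 normalized counts per kb), *Cacna2d2* (220), *Cacna1c* (112), *Cacnb3* (99.1), *Cacna2d1* (67.4), *Cacna1g* (51.5), *Cacnb2* (48.1), *Cacnb1* (32.9) and *Cacna1d* (23.7). *Cacna1c* and *Cacnb3* were not apart by more than the spread of the latter, whose SD was 14.4 per kb. *Cacna1g* and *Cacnb2* were likewise not apart, with SDs of 4.72 and 4.91 per kb. The order depends on the length used. Per kb of the longest coding transcript, *Cacna1c* was first with 356 and *Cacna1h* and *Cacna2d2* shared the next place with 316, since the annotated exons of *Cacna1c* sum to 21191 bases and its longest coding transcript has 6669. *Cacna1d* was the lowest on both scales. On either scale the T-type pore *Cacna1h* was above the other T-type pore, *Cacna1g*, by a similar factor in both genotypes, and its group mean was 4.98 times that of *Cacna1g* in wild type and 5.07 times in null.

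**Figure D3:**
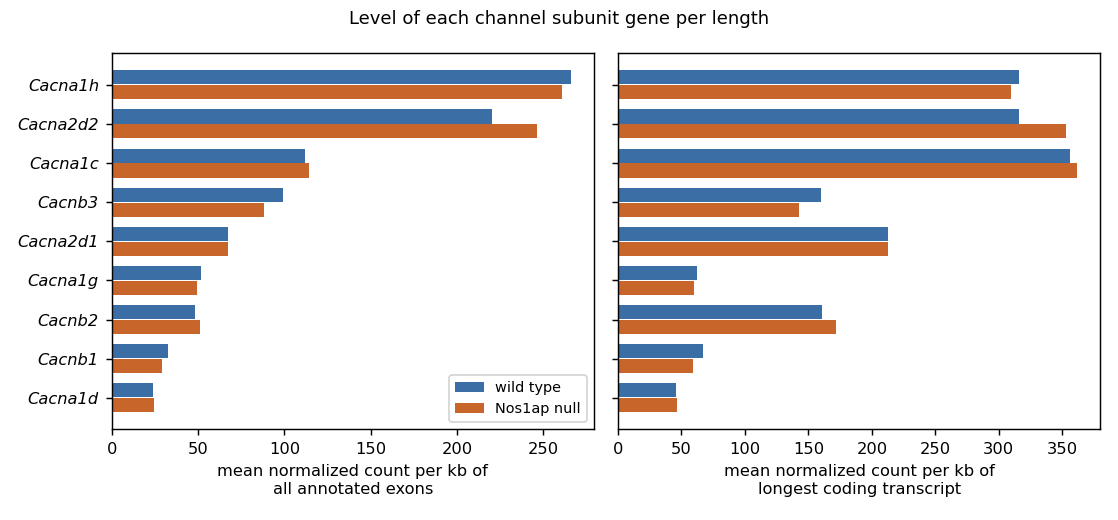
Mean normalized count per kb of all annotated exons (left) and of the longest coding transcript (right) for each subunit gene, in wild type (blue) and *Nos1ap* null (orange), with genes ordered by the left panel. *Cacna1h*, *Cacna2d2* and *Cacna1c* are the top of both panels, with 266, 220 and 112 per kb of exons in wild type, and *Cacna1d* is the lowest.

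The exons of 5 of the 9 genes overlap those of 7 other genes in GENCODE release M21, each on the opposite strand. Of these 7 genes, 3 had a row in the table, all at a low level. *Chdh* shares 4.67% of the exon bases of *Cacna1d* and had a mean of 4.52 in wild type and 2.61 in null. *Gm10849*, a pseudogene, shares 4.67% of those of *Cacnb2* and had 5.28 and 4.83. *Tpsg1* shares 1.62% of those of *Cacna1h* and had 0.41 in wild type and 0 in null. The study's methods state that the strand of the libraries was taken into account when reads were assigned to genes.

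The other subunits of the family include the pores of neuronal channels, the pore of the skeletal muscle channel (*Cacna1s*) and the gamma subunits. Of 17 such genes listed, 15 were analysed here, of which 10 had a mean of at least 10 and were tested. None passed the adjusted threshold (limma, 0 of 10 against 0.0266% of all genes). Of the 10, 1, *Cacna1e*, had an unadjusted p under 0.05, against 407 of all 11297 genes tested. The same counts among the 10 were found with precision weights. By group means, 2 of the 10 were at least 1.1-fold higher in null and 5 at least 1.1-fold lower, against 7.6% and 10.4% of all genes, and the median log2 ratio was −0.16. The 10 had low means, from 10.1 to 139, and the shares of all genes are not matched for count level. They therefore cannot show whether the 10 differ from genes of like count. Without wild-type library 3, chosen after seeing the data, 2 were higher and 4 (*Cacna1b*, *Cacna1e*, *Cacna2d3* and *Cacng4*) lower. Of all 11297 genes tested, 10.5% were higher and 10.5% lower without that library. The median log2 ratio of the 10 was then −0.03.

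*Cacna1e*, the pore of R-type channels, had 32.2, 21.3, 72.3, 23.7 and 27.9 normalized counts in the wild-type libraries. Null libraries had 18.9, 15.1, 16.1, 21.5 and 21.8. Wild-type library 3 was far above the rest, and the wild-type library with 21.3 was below 2 null libraries. The log2 fold change was −0.76 (95% confidence interval −1.31 to −0.20, unadjusted p = 0.01, adjusted p = 0.998, limma). Without wild-type library 3 it was −0.47 (95% confidence interval −0.90 to −0.04), with an adjusted p of 0.997 by limma, and its adjusted p lay between 0.84 and 1 in all alternatives.

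*Cacna1b*, the pore of the N-type channel of nerve endings, had 9.57, 10.7, 101, 13.4 and 4.14 normalized counts in the wild-type libraries. The null libraries had 5.40, 11.1, 9.07, 5.37 and 8.71. The high wild-type mean came from library 3 alone. The log2 ratio of the group means was −1.81, the limma log2 fold change was −0.85 (95% confidence interval −2.35 to 0.64), and without wild-type library 3 it was −0.18 (95% confidence interval −0.90 to 0.54). *Cacng4*, a gamma subunit that is also an auxiliary subunit of AMPA receptors, had 166 in wild-type library 3, against 53.2 to 67.9 in the other wild-type libraries and 37.8 to 71.6 in the null libraries. Its log2 fold change was −0.54 (95% confidence interval −1.20 to 0.13, limma), and −0.25 without library 3. *Cacna2d3*, an alpha-2-delta subunit, had 30.5 there, against 6.21 to 12.4 and, in null, 3.22 to 13.1. *Cacng2*, chosen after its values were seen, had 10 reads in wild-type library 3 and 0 in each of the other 9 libraries.

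Neuronal markers moved with these genes. Of the 10 neuronal markers, all had a row, and their summed group mean was 1212 in wild type and 223 in null. The markers with library values were highest in wild-type library 3, as in *Prph* with 585 against 4.13 to 11.4 in the other wild-type libraries. Markers of muscle other than that of the heart were examined in the same way. The 4 of 5 skeletal muscle markers with library values summed to 198 there, against 48.4 to 94.0 in the other wild-type libraries and 58.8 to 91.5 in the null libraries, with *Myh3* at 103 and *Actn3* at 63.1, below the 87 of wild-type library 1. The 1 of 4 smooth muscle markers with library values, *Myh11*, had 206 there, against 32.9 to 69.1 and, in null, 28.3 to 64.8. Over all listed skeletal muscle markers, the summed group means were 1331 in wild type and 1349 in null. For smooth muscle the sums were 18240 and 17690, and *Acta2*, *Tagln* and *Cnn1* had log2 ratios of −0.04, −0.07 and −0.0011. The part of such cells in the values of the channel genes was not tested. The values without the library stand beside each.

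**Figure D4:**
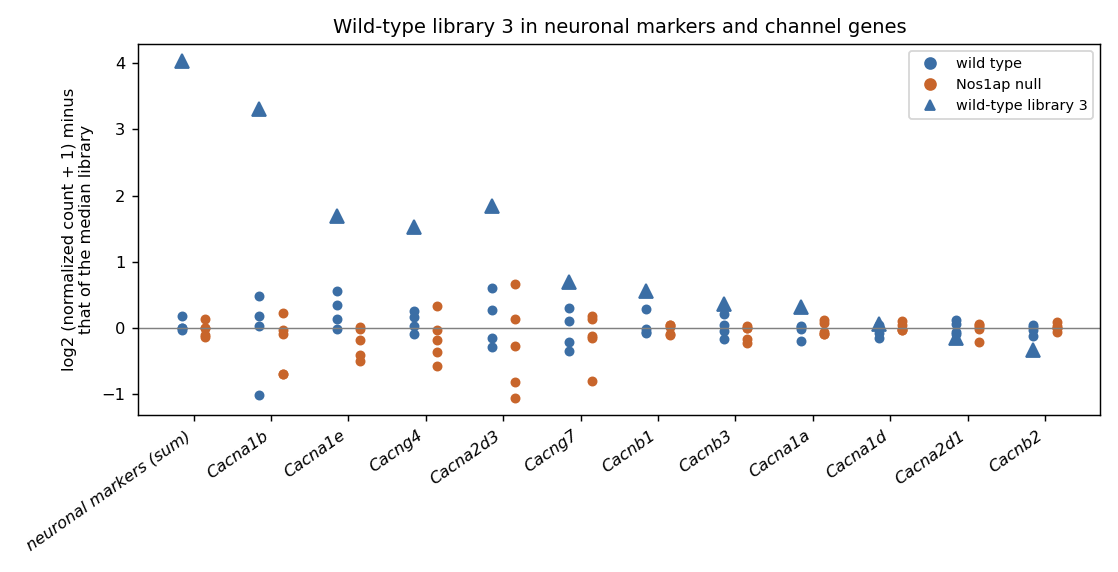
Log2 of the normalized count plus 1 in each library, relative to the median library, for the sum of 7 neuronal markers and for 11 channel genes. Wild-type library 3 (triangle) is the highest library of the neuronal sum (1756) and of the 5 channel genes that follow it. It is also highest for *Cacnb1* (198), *Cacnb3* (478) and *Cacna1a* (171) and lowest for *Cacnb2* (532).

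The other tested subunits differed less between the genotypes, apart from *Cacnb4*. *Cacna1a*, the pore of P/Q-type channels, had 141 ± 18.6 (SD, n = 5) in wild type and 137 ± 9.48 (SD, n = 5) in null, with 171 in wild-type library 3. *Cacng6*, a relative of the skeletal muscle gamma subunit, had 124 ± 12.6 (SD, n = 5) and 123 ± 22.8 (SD, n = 5). *Cacng7* had 141 ± 42.0 (SD, n = 5) and 117 ± 28.3 (SD, n = 5), with 205 in wild-type library 3. *Cacnb4*, the remaining beta subunit, had 12.0 ± 3.66 (SD, n = 5) and 17.3 ± 6.43 (SD, n = 5), a log2 fold change of 0.47 (95% confidence interval −0.13 to 1.06, adjusted p = 0.998, limma). The other 5 analysed subunit genes (*Cacna1i*, *Cacng1*, *Cacng2*, *Cacng3* and *Cacng5*) had means under 10 and were not tested.

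The proteins that bind or modify the channel were taken as a list of 28 genes, all with a mean of at least 10. Of these, 12 were tested and 16 had means above 1000, for which only group means were used. None of the 12 passed the adjusted threshold (limma, background 0.0266%). Of the 12, 1, *Stac*, had an unadjusted p under 0.05, with and without precision weights. Over all 11297 genes tested, 407 had such a p without these weights. By group means, 0 of the 28 were at least 1.1-fold higher in null and 5 at least 1.1-fold lower, against 7.6% and 10.4% of all genes, with a median log2 ratio of 0.0031. These 5 had means from 13.3 to 136, and the shares of all genes are not matched for count level. The 16 genes with means above 1000 had log2 ratios from −0.05 to 0.07.

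*Stac*, which encodes an adaptor protein that binds L-type channels and slows their inactivation, had 13.9, 22.3, 19.3, 11.4 and 17.6 normalized counts in the wild-type libraries. In the null libraries they were 9, 5.03, 11.1, 11.8 and 12.0. Only wild-type library 4, with 11 reads, lay among the null libraries. The log2 fold change was −0.75 (95% confidence interval −1.33 to −0.16, unadjusted p = 0.0148, adjusted p = 0.998, limma), and −0.69 without wild-type library 3. Its relatives *Stac2* and *Stac3* had log2 fold changes of −0.17 and 0.15, with intervals that held 0.

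The RGK proteins are small GTP-binding proteins that inhibit L-type channels through the beta subunit. *Rrad*, the one with the most counts, had a mean of 1812 in wild type and 1831 in null. *Gem* had 144 ± 19.7 (SD, n = 5) and 129 ± 13.9 (SD, n = 5), and *Rem1* had 88.7 ± 9.64 (SD, n = 5) and 84.1 ± 13.02 (SD, n = 5). Their log2 fold changes of −0.15 and −0.08 had 95% confidence intervals from −0.37 to 0.07 and from −0.33 to 0.17.

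The calcium/calmodulin-dependent kinases *Camk2a*, *Camk2d* and *Camk2g* had log2 ratios of 0.05, 0.04 and 0.01. Their relative *Camk2b*, named after its values were seen, had 70.1 ± 7.99 (SD, n = 5) in wild type and 61.3 ± 10.3 (SD, n = 5) in null. Its log2 fold change was −0.20 (95% confidence interval −0.48 to 0.08, limma). The calcineurin genes *Ppp3ca*, *Ppp3cb* and *Ppp3r1* had −0.05, 0.0034 and 0.04. The protein kinase A genes *Prkar1a*, *Prkaca* and *Prkar2a*, through which adrenergic signals reach the channel, had 0.01, 0.03 and 0.0028. Among proteins that hold the channel at the junction of membrane and sarcoplasmic reticulum, *Jph2* and *Ahnak* had 0.05 and 0.01. *Bin1* had 236 ± 39.8 (SD, n = 5) in wild type and 233 ± 10.5 (SD, n = 5) in null. These ratios are those of group means and carry no test, except for *Camk2b* and *Bin1*. The log2 fold change of *Bin1* was −0.01 (95% confidence interval −0.20 to 0.18, limma).

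**Figure D5:**
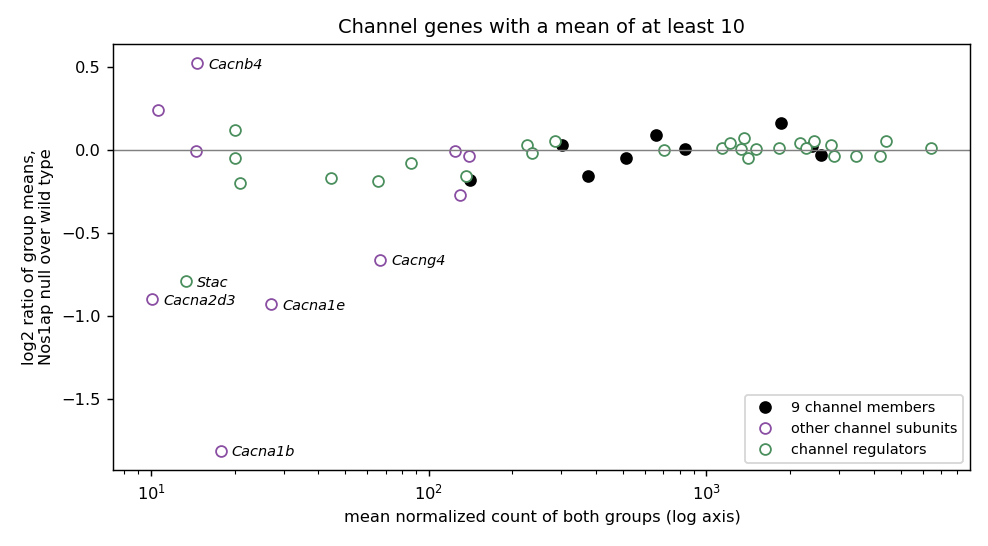
Log2 ratio of the group means, *Nos1ap* null over wild type, against the mean normalized count of both groups (log axis), for the 9 subunit genes (filled), the other channel subunits (purple) and channel regulators (green) with a mean of at least 10. The filled points lie between −0.18 and 0.16, and the points farthest from 0 belong to genes of low count, *Cacna1b* (−1.81) and *Cacna1e* (−0.93) among them.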

How the data were processed

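The 10 RNA-seq libraries of embryonic hearts were grouped by the genotype in their labels, 5 in each. Per the labels and the study's methods, the authors used Trimmomatic 0.36 for trimming, RSEM 1.2.31 with STAR for alignment and gene-level estimates, and DESeq 1.24.0 for the comparison. The signal values used from the deposited table are the authors' normalized counts averaged over each genotype. The table's fold changes, p-values and adjusted p-values hold the authors' comparison and were not used.

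Size factors were read from the steps between possible means, and whole counts that give each mean to its 15 printed digits were searched for means under 1000. A set of counts was taken where it was the only one, or where at most 0.01 others as near to equal expression were expected by chance. Counts were obtained for 98.8% of the wild-type and 99.1% of the null means under 1000, and genes with widely differing counts are those left out. The search and the test were tested on simulated data. The test was that of limma 3.58.1 (R 4.3.3) on log2 of the normalized count plus 1, a scale that understates changes of low counts, for genes whose mean was at least 10, with a trended, robust prior and Benjamini-Hochberg adjustment over all 11297 genes. Single genes were also compared by an exact permutation test over 252 arrangements. Exon lengths came from GENCODE release M21, not the authors' release.

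Alternatives changed the pseudocount, the weights, the mean required, the genes adjusted over, the scaling, the chance limit and the libraries. Of other subunits and regulators, those called were to be named, and otherwise the 3 of highest mean per role, some of which are not reported here. The subunit genes and lists were chosen with earlier results of these data known. The labels give 5 males per genotype and name no litters, and p-values measure the spread between these libraries, which may be technical in part.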

Additional observations from a re-analysis of the deposited data

Results flagged for a closer look

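Groups of 5 libraries were examined for a single library far from the others, that is, one whose gap to the nearest library exceeded 0.71 of the range of its group. Of 57 such groups (*Nos1ap*, the subunit genes, and the other subunits and regulators with a mean of at least 10), 5 were marked, where chance alone marks about 1 in 20. Wild-type library 3 accounted for 4 of them, each time as the highest. They were *Cacna1b* with a normalized count of 101, *Cacna1e* with 72.3, *Cacng4* with 166 and *Cacna2d3* with 30.5. The 7 neuronal markers with library values were 16.1 times as high in that library as in the mean of the other 4 wild-type libraries. The fifth was *Cacna1s*, the pore of the skeletal muscle channel, with 19.1 in null library 2 and 12.9 to 14.1 in the other null libraries. None of the 9 subunit genes was marked in either genotype where library values were at hand.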

How the results depend on the processing

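The number of subunit genes with an adjusted p under 0.05 was 0 in each of the 18 alternatives, as was that of the other subunits and of the regulators. The adjusted p of the tested subunit genes lay between 0.854 and 1 throughout. With a chance limit of 0.001 only 2 of the 9 subunit genes had counts to test, and with one of 0.05, added after seeing the data, 6 had. Over all genes, 3 passed in every alternative except the limit of 0.001, with 4, and the number with an unadjusted p under 0.05 ran from 349 to 640 when 1 library was left out. *Nos1ap* stayed between −1.88 and −1.75 on the log2 scale with every library left out in turn. Of 181 values recomputed, 174 were classed as the same in direction and side of the threshold. Among these is the number of other subunits at least 1.1-fold lower, which went from 5 to 4 without wild-type library 3. A further 1 count was classed as moved. The 6 values that turned were all of *Cacna2d1*, whose log2 fold change ran from −0.03 to 0.05 as libraries were left out. It was −0.01 without wild-type library 1 or 4 or null library 4 or 5, −0.03 without wild-type library 3 and −0.02 without null library 1. *Cacnb2* had an unadjusted p under 0.05 without wild-type library 2, and *Cacnb3* without wild-type library 5. Wild-type library 3 had the most weight on the beta genes, with *Cacnb1* at −0.05, *Cacnb3* at −0.09 and *Cacnb2* at 0.04 without it, and the 2 subunit genes at least 1.1-fold lower by group means became 0. No paired analysis was possible because the labels name no litters and no pairs of embryos. Group means above 1000 limit what can be said of *Cacna1c*, *Cacna1h* and *Cacna2d2*.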
